A study of Mus musculus with 2 samples.

Results

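Stem cell core cells of the E14.5 mouse fetal liver that held none of 4 proliferation transcripts were described and compared between IκBα WT and KO embryos. In the fetal liver, hematopoietic stem cells expand in number, so most of them divide, whereas in the adult marrow most are out of the cell cycle. Hlf and Mecom encode transcription factors that mark these stem cells and are lost as cells commit to a lineage. Mki67 encodes the proliferation antigen Ki-67, Top2a a topoisomerase needed for chromosome segregation, Ccnb1 cyclin B1 and Cdk1 the kinase that cyclin B1 activates at the entry into mitosis. Nfkbia encodes IκBα, which holds NF-κB dimers in the cytoplasm and is itself an NF-κB target gene.

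A cell was a member where it had at least 1 UMI (a tag that marks one original RNA molecule) of Hlf and 1 of Mecom, up to 1 UMI of Klf1 (an erythroid transcription factor) and up to 4 of Mpo (myeloperoxidase of granulocyte progenitors). In addition, the UMIs of Mki67, Top2a, Ccnb1 and Cdk1 had to sum to 0. The rule found 97 cells, 56 in the WT and 41 in the KO library, among the 7875 cells of both libraries that passed the filter on detected genes and mitochondrial UMIs. These cells are called proliferation-negative core cells below. The 658 cells that met the Hlf, Mecom, Klf1 and Mpo conditions (349 WT, 309 KO) are called the stem cell core, and the 561 of them with at least 1 proliferation UMI (293 WT, 268 KO) proliferation-positive core cells. Both names describe counts of transcripts, not a measured cell cycle state. Since measured values chose the cells, the 8 genes of the rule are given as a description.

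Both libraries came from lineage-depleted fetal livers of CD1 embryos, an outbred stock, with cells sorted as LSK (lineage-negative, SCA1-positive, cKIT-positive). The WT library pooled 2 embryos and the KO library 3 embryos of the germline knockout line Nfkbia tm1Bal, in which every cell of the embryo lacks the gene, the liver stroma included. LT-HSCs appear in the titles of the samples, but their cell type entries and the sort give LSK cells. With 1 library per genotype there were no replicates and no test, and all intervals are 95% intervals that cover counting error only. The WT library held 109122324 UMIs and the KO library 100029143 UMIs, and filtered WT cells had a median of 28065 UMIs against 19560 in KO cells. Xist without any Y-linked UMI was found in 55 of 56 WT members and 26 of 41 KO members, and Y-linked UMIs without Xist in 6 KO members. Of the barcodes, 7 occurred in both libraries, none of them in a member.

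The members were the shallow end of the stem cell core. WT members had 3448 to 18715 UMIs with a median of 10549, and KO members had 2395 to 21092 UMIs with a median of 6955. Proliferation-positive core cells had medians of 17131 UMIs in WT and 12422 in KO. The share of mitochondrial UMIs, a sign of cell damage when high, had medians of 3.32% in WT and 3.36% in KO members and reached 9.28% and 5.27%. A cell of few UMIs can miss a transcript that it contains, and fewer UMIs per cell and a smaller RNA content of the cell cannot be told apart here.

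**Figure D1:**
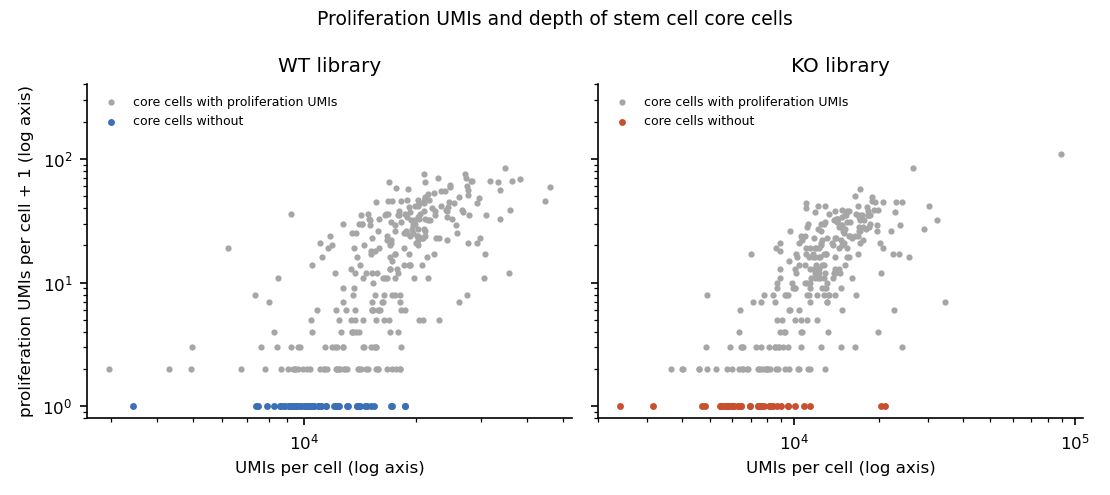
UMIs per cell (x axis, log scale) against the summed UMIs of Mki67, Top2a, Ccnb1 and Cdk1 plus 1 (y axis, log scale) for each stem cell core cell of the WT and the KO library. The members lie on the bottom line of each panel, between 3448 and 18715 UMIs in WT and between 2395 and 21092 UMIs in KO, to the left of most other core cells.

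The label was checked against markers outside the rule. Procr encodes the endothelial protein C receptor, a surface marker of stem cells, Mllt3 a chromatin reader that maintains stem cells, and Cdkn1c the CDK inhibitor p57, linked to stem cell quiescence. All 3 had a UMI in 12 of 56 WT members and 2 of 41 KO members, and none had one in 3 WT and 10 KO members. After each cell was thinned to 5000 UMIs, Procr had a UMI in 36.4% of WT members (23.8 to 50.4) and 27.0% of KO members (13.8 to 44.1), against 18.0% and 14.6% of proliferation-positive core cells. As a reference, Procr then had a UMI in 0.179% of WT cells and 0% of 877 KO cells with 10 or more Klf1 UMIs, which are erythroid and should lack it, and those cells had medians of 41978 and 33223 UMIs before thinning. Mllt3 had a UMI in 40.0% and 43.2% of members at that depth and in 31.9% and 31.5% of the erythroid reference cells, so that it hardly separated them. Kit, which encodes the sorted surface protein cKIT, had a UMI in 45.5% of WT and 40.5% of KO members at 5000 UMIs, against 12.7% and 11.6% of the erythroid reference cells. Ly6a, which encodes SCA1, had a UMI in 16.4% and 13.5% of members, against 0.179% and 0.114% of the reference cells. Both transcripts were thus above the erythroid reference cells, which came from the same sorted libraries and are no background for the sorted proteins. In proliferation-positive WT and KO core cells, Mllt3 had a UMI in 33.9% and 32.3%, Kit in 42.6% and 40.0% and Ly6a in 15.9% and 18.1%. Cdkn1c had a UMI in 61.8% of WT and 29.7% of KO members, against 44.3% and 41.9% of those cells. In KO, Cdkn1c thus went the other way from Procr. Slamf1, which encodes the LT-HSC marker CD150, had a UMI in 4 WT members and 1 KO member, too few to place them inside or outside an LT-HSC gate.

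The thresholds of the rule lay among many cells of similar values. Inside the rule, Hlf was at exactly 1 UMI in 7 WT and 19 KO members, Mecom in 18 and 25, and both in 2 and 14. Hlf ranged from 1 to 10 UMIs per WT member with a median of 3.5 and from 1 to 5 per KO member with a median of 2. Just outside, 39 WT and 31 KO core cells held exactly 1 proliferation UMI, 10 WT and 18 KO cells missed the rule only by Hlf, and 28 and 33 only by Mecom. The KO members thus sat closer to the limit of detection than the WT members did.

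Members were counted against the filtered cells and against the stem cell core. Of filtered cells, 1.62% (1.23 to 2.10) were members in WT and 0.928% (0.667 to 1.26) in KO, which differed by -0.69 percentage points (-1.24 to -0.18). The stem cell core itself formed 10.1% of WT and 6.996% of KO cells, differing by -3.10 points (-4.38 to -1.83). Within the core, the proliferation-negative share was 16.0% (12.4 to 20.3) in WT and 13.3% (9.69 to 17.6) in KO, a difference of -2.78 points (-8.35 to 2.89). The difference within the core was within counting error, and the smaller KO share among filtered cells came with the smaller KO core.

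These shares moved with depth. With every cell thinned to 5000 UMIs before the rule was applied, 46 of 156 WT core cells (29.5%) and 33 of 126 KO core cells (26.2%) lacked the 4 transcripts, a difference of -3.30 points (-14.1 to 7.79). With cells thinned to 8500 UMIs, the shares were 61 of 240 (25.4%) in WT and 10 of 195 (5.13%) in KO, a difference of -20.3 points (-26.8 to -13.5). This depth left out 5 WT and 32 KO members as too shallow, so that the larger difference compares most of the WT members with few of the KO members. The core itself formed 4.59% of WT and 2.92% of KO filtered cells at 5000 UMIs, a difference of -1.67 points (-2.57 to -0.80). At 8500 UMIs it formed 7.21% and 4.83%, a difference of -2.38 points (-3.51 to -1.27).

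The expression program of the members was described first against proliferation-positive core cells, within each library, and the same contrast as the rule means that it carries no test. G2 and M phase genes outside the rule were lower almost throughout, S phase genes were lower in part, and stem cell transcription factor genes were slightly higher. Of 4781 genes with at least 100 UMIs in the compared cells of each library, 186 (3.89%) were at least 2-fold lower in the members of both libraries and 4 (0.0837%) at least 2-fold higher. With a minimum of 20 UMIs, as used for gene lists, 294 of 9201 genes (3.2%) were lower and 58 (0.63%) higher. The median log2 ratio over the 4781 genes was -0.05 in WT and -0.08 in KO. Past 2-fold, the members thus differed mainly by lower transcripts.

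Of the 31 G2 and M phase genes outside the rule, 30 were at least 2-fold lower in both libraries, all but Gtse1. Together they had 1140 CPM (UMIs scaled to the summed total of the cells) in WT members and 1269 CPM in KO members, against 5980 and 6306 CPM in proliferation-positive core cells. Nusap1, a microtubule-bundling protein of the spindle, had 3.17 and 3.20 CPM in WT and KO members against 168.9 and 178.9 CPM. Ube2c, the ubiquitin-conjugating enzyme of the anaphase-promoting complex, had 23.8 and 35.2 CPM against 418 and 481 CPM. Aurkb, the kinase of the chromosomal passenger complex, had 0 UMIs in WT members and 1 UMI in KO members, and at the floor of 3 UMIs its log2 ratio in WT was at most -4.39. The spindle motor genes Kif11, Kif22 and Kif20b, the spindle midzone gene Prc1 and the checkpoint kinase gene Bub1b were among the 10 lowest genes as well, with 1 to 5 UMIs each in the members of a library. Per cell the summed list ran from 110 to 5818 CPM in WT members with a median of 1037, and from 328 to 9097 CPM in KO members with a median of 1156. The highest member therefore held other mitotic transcripts just below the proliferation-positive level of 5980 CPM in WT and above that of 6306 CPM in KO.

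S phase transcripts were lower but remained. The sum of the 30 S phase genes was 1814 CPM for WT and 1867 CPM for KO members, against 3934 and 3696 CPM in proliferation-positive core cells, and no member was without them. Lower by at least 2-fold in both libraries were 9 of the 30, among them Rrm1 and Rrm2, the ribonucleotide reductase subunits, Tyms, the thymidylate synthase, and Uhrf1, which guides maintenance DNA methylation. Rrm2 had 11.1 and 12.8 CPM in the members against 91.6 and 84.0 CPM. The replicative helicase gene Mcm6 had 152 and 134 CPM against 211 and 195 CPM and stayed within 2-fold. Hist1h1b, a linker histone gene of S phase, had 49.2 and 44.8 CPM against 1104 and 1107 CPM, and Pclaf, which encodes a PCNA-binding protein, 11.1 and 22.4 CPM against 411 and 412 CPM.

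G1 cyclin genes split by their place in the cycle. Of 12 G1 cyclin and kinase genes, Ccne1, Ccne2, E2f1 and E2f2, which act at the G1 to S transition, were at least 2-fold lower in both libraries. Ccnd2, a D-type cyclin gene that responds to growth signals, had 192 and 201 CPM in the members against 160 and 154 CPM, and Ccnd1 had 189 and 201 CPM against 193 and 164 CPM. None of the 20 cell cycle inhibitor and quiescence genes with enough UMIs was 2-fold different in both libraries. The antiproliferative gene Btg1 came close with 42.9 and 41.6 CPM against 20.9 and 24.7 CPM, whereas Cdkn1b, which encodes p27, had 23.8 and 22.4 CPM against 23.9 and 23.3 CPM.

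The promoters of these cell cycle genes are shown because the G2 and M phase list and the S phase list differ in promoter letters. In dividing cells, many G2 and M phase promoters carry a CHR element bound by MuvB complexes, often beside CCAAT boxes, and many S phase promoters carry E2F sites. Stretches of 130 bases before the transcription start, from RefSeq promoters on GRCm38.p6, are printed for Cdk1, Ccnb1 and Top2a of the rule and for Ube2c and Kif11 of the G2 and M list, with the CHR letters (TTTGAA or TTTAAA, either strand) in capitals. Rrm1 and Uhrf1 of the S phase list follow, with the E2F core (GCGGGAA, either strand) in capitals.
Cdk1 promoter, chr10:69352913-69353042, minus strand: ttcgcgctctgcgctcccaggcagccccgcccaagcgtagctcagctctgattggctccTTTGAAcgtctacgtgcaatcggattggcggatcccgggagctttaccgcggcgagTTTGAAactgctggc
Ccnb1 promoter, chr13:100786487-100786616, minus strand: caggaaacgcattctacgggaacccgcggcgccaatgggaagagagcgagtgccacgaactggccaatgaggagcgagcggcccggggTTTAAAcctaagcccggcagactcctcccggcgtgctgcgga
Top2a promoter, chr11:99024190-99024319, minus strand: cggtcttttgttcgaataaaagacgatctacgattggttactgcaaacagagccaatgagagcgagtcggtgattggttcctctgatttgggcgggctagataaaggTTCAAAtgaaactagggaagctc
Ube2c promoter, chr2:164769799-164769928, plus strand: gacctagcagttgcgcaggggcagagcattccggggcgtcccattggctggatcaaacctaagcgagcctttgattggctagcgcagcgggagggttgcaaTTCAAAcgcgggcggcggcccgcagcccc
Kif11 promoter, chr19:37376252-37376381, plus strand: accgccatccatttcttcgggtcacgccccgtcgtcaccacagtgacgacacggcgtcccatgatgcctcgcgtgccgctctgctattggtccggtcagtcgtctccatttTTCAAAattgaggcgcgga
Rrm1 promoter, chr7:102441565-102441694, plus strand: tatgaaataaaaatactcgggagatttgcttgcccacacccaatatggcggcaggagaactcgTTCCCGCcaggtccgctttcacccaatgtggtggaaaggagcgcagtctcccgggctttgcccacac
Uhrf1 promoter, chr17:56303207-56303336, plus strand: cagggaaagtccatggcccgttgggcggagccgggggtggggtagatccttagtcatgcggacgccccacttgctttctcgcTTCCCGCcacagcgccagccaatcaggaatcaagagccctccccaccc
In Cdk1 the CHR letters began 71 and 15 bases before the start, in Ccnb1 42, in Top2a 23, in Ube2c 29 and in Kif11 19 bases before it. Over a window from 250 bases before to 50 after the start, the CHR letters occurred in 22 of 26 matched G2 and M phase genes (84.6%), 6 of 24 matched S phase genes (25%) and 8261 of all 27025 genes (30.6%). The E2F core occurred in 0 of the 26, in 12 of the 24 (50%) and in 5.29% of all genes, and CCAAT (either strand) in 80.8%, 62.5% and 41.1%. Stem cell transcription factor genes held the CHR letters in 29.2% of 24 matched genes, close to the share over all genes. A match is a description of letters, not of a bound site.

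The cells with few proliferation UMIs lay between these ends. Over core cells with 0, 1, 2 to 4, 5 to 9 and 10 or more proliferation UMIs, the G2 and M phase genes had 1140, 1419, 2198, 2725 and 7488 CPM in WT and 1269, 1325, 1695, 3813 and 7869 CPM in KO. The S phase genes peaked one class earlier, with 1814, 2449, 3370, 4985 and 4068 CPM in WT and 1867, 2204, 3213, 4724 and 3697 CPM in KO. Procr ran the other way, from 60.3 CPM in the members to 25.4 CPM at 10 or more UMIs in WT and from 57.5 to 24.4 CPM in KO. Mecom, a gene of the rule, went from 213 to 128 CPM in WT and from 233 to 124 CPM in KO between the same classes, and Mllt3 from 132 to 82.2 CPM and from 99.1 to 81.9 CPM. Median depth also rose across the classes, from 10549 to 19643 UMIs in WT and from 6955 to 14291 in KO, and its part in these gradients was not tested. Between 0 and 1 UMI, both lists and Procr differed by less than 1.5-fold in each library. In KO cells, Cdkn1c had 95.9 CPM (64.7 to 137) at 0 UMIs and 173 CPM (124 to 236) at 1 UMI, and Mllt3 had 99.1, 126 and 77.7 CPM at 0, 1 and 2 to 4 UMIs.

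**Figure D2:**
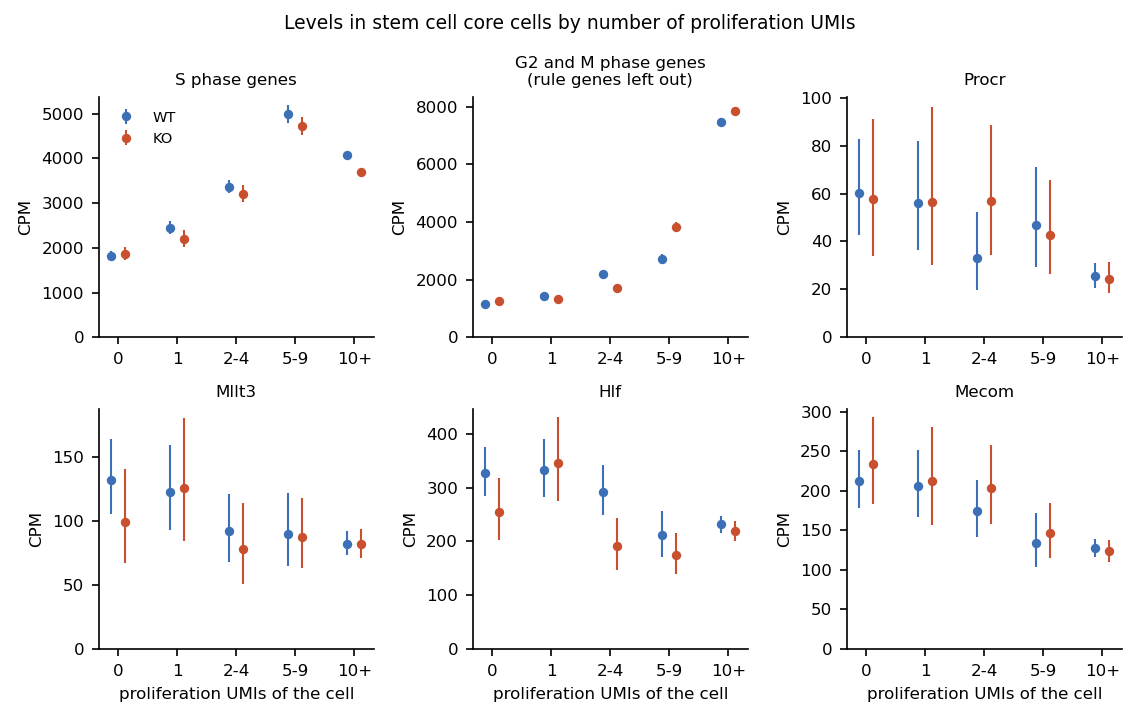
CPM (y axes, with Poisson intervals) of the S phase list, the G2 and M phase list and single genes in stem cell core cells grouped by their summed proliferation UMIs (x axes), for WT and KO. The G2 and M phase genes go from 1140 to 7488 CPM in WT and Procr from 60.3 to 25.4 CPM.

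Of the few genes higher in the members, 2 encode core histones. Hist1h2bc, a histone H2B gene, had 156 and 160 CPM in WT and KO members against 31.4 and 25.8 CPM in proliferation-positive core cells, with log2 ratios of 2.31 (1.94 to 2.68) and 2.63 (2.10 to 3.14). Hist1h4i, a histone H4 gene, had 55.6 and 70.3 CPM against 22.2 and 23.9 CPM. Replication-dependent histone mRNAs mostly lack the poly-A tail that these libraries were primed on, so the counts of histone genes reflect tailed transcripts, and reads of near-identical copies may be shared among them. The other 2 genes past 2-fold were Neurl3, an E3 ubiquitin ligase gene, with 66.7 and 54.3 CPM against 27.2 and 24.7 CPM, and the predicted gene Gm19590. Hist1h2bc and Hist1h4i had 25.8 and 20.6 CPM in the remaining filtered WT cells, below their level in the members, and Neurl3 had 4.19 CPM there.

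The other genes among the 15 highest stayed below 2-fold in at least one library and were of mixed function. Ltb, which encodes lymphotoxin beta and is an NF-κB target, had 330 and 572 CPM in WT and KO members against 179 and 292 CPM, with log2 ratios of 0.88 and 0.97. Procr had 60.3 and 57.5 CPM against 30.8 and 32.0 CPM, and Fgd5, a guanine exchange factor gene used to mark stem cells, 50.8 and 60.7 CPM against 27.9 and 27.8 CPM. Smad7, an inhibitor of TGF-beta signaling, had 85.7 and 73.5 CPM against 49.4 and 40.7 CPM. Sqstm1, the autophagy receptor p62, Nfat5, an osmotic stress factor, Kif3a, a motor of cilia, and Serpinb6b, Avl9, Eva1b and the predicted gene AY036118 were also among the 15 highest. Of 23 stem cell surface genes with enough UMIs, only Cdh5 passed 2-fold in both libraries, and it rested on 7 and 5 UMIs in the members.

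**Figure D3:**
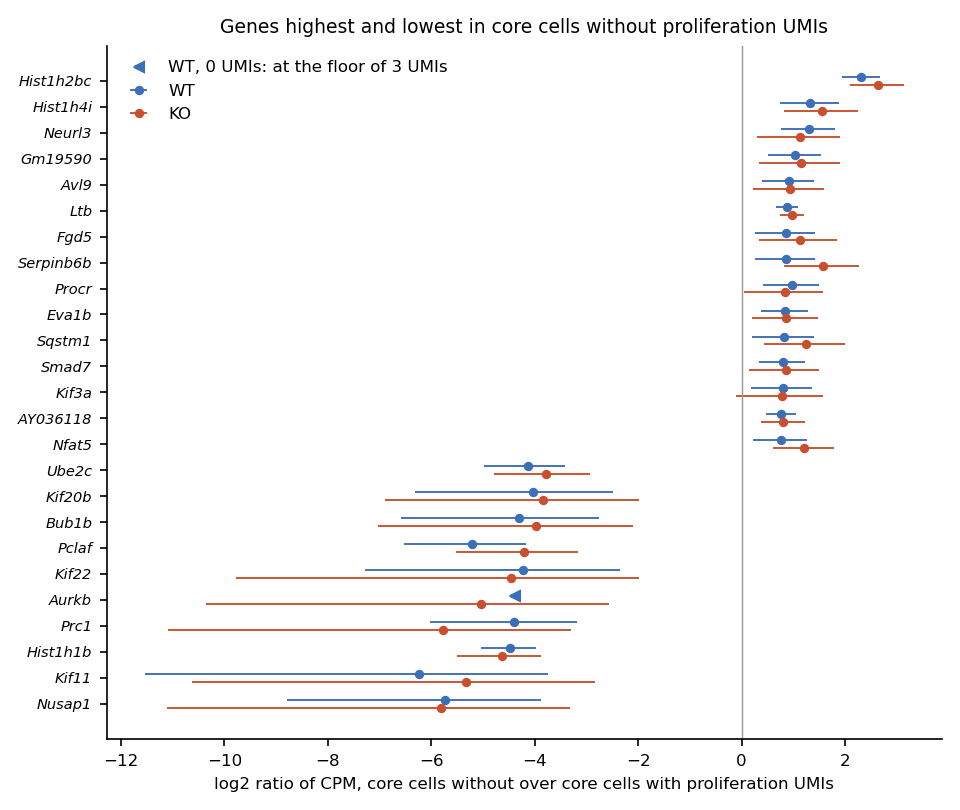
Log2 ratio of CPM, members over proliferation-positive core cells (x axis), for the 15 highest and 10 lowest genes by rule (y axis), with 95% counting intervals for WT and KO. The left-pointing triangle is Aurkb in WT, which had 0 UMIs and is drawn at the floor of 3 UMIs. Hist1h2bc stands above the other genes at 2.31 and 2.63, and the lowest genes lie near -4 to -6.

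The stem cell identity genes were slightly higher in members than in proliferation-positive core cells. As summed log2 ratios, the transcription factor genes stood at 0.22 (0.15 to 0.29) in WT and 0.25 (0.16 to 0.35) in KO, and the surface genes at 0.35 (0.27 to 0.44) and 0.28 (0.16 to 0.40). The surface sum includes Ltb, itself among the highest genes above, and was not computed without it. The median ratio of 23 surface genes was 0.36 in WT and 0.15 in KO. Of 28 stem cell transcription factor genes, 0 were 2-fold higher or lower in both libraries, and the sum was 3064 and 2995 CPM in members, 2630 and 2511 CPM in proliferation-positive core cells and 1310 and 1246 CPM in the remaining filtered cells. Hoxa9 had 168 and 157 CPM in members against 127 and 121 CPM in proliferation-positive cells, and 26.5 and 22.0 CPM in the remaining cells. Meis1, its cofactor gene, had 98.4 and 115 CPM against 91.8 and 89.0 CPM, and Hmga2, a chromatin protein gene of fetal stem cells, 463 and 419 CPM against 413 and 374 CPM. Interferon response and MHC class I genes summed to 3868 and 4306 CPM in members against 3002 and 3128 CPM, with Ifitm3 (an antiviral membrane protein) at 713 and 735 CPM against 503 and 515 CPM.

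Growth and metabolism genes differed by small ratios. MYC targets were lower in the members by a summed log2 ratio of -0.32 in WT and -0.38 in KO, glycolysis genes by -0.19 and -0.23, and oxidative phosphorylation genes by -0.11 and -0.10. Ribosomal protein genes were slightly higher, at 0.12 and 0.11, as were the 13 mitochondrially encoded genes, at 0.24 and 0.14. Of the 40 MYC targets only Ctps, the CTP synthase gene, was 2-fold lower in both libraries, and 0 of 45 oxidative phosphorylation genes and 0 of 20 glycolysis genes were. These lists thus moved by less than the S and G2 and M phase lists, at -1.12 and -2.39 in WT.

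A second contrast used 81 filtered cells (32 WT, 49 KO) with 0 UMIs of Hlf and Mecom that met the other conditions. Of 919 genes with at least 100 UMIs in the compared cells of each library, 15 (1.63%) were at least 2-fold higher in members of both libraries and 68 (7.4%) lower. The higher genes included Hmga2, with 463 and 419 CPM in members against 99.5 and 89.2 CPM, Mef2c, a transcription factor gene, with 432 and 438 CPM against 196 and 151 CPM, and Samsn1, an adaptor gene, with 360 and 313 CPM against 99.5 and 52.0 CPM. The lowest genes were of other cell types, with Alb (albumin) at 3818 and 1459 CPM in the compared cells and 28.6 and 47.9 CPM in the members, and Lyve1 (an endothelial receptor) at 446 and 349 CPM against 0 and 3.20 CPM. Macrophage genes summed to 1844 and 5843 CPM in the compared cells against 233 and 1333 CPM in members, and megakaryocyte genes to 4420 and 3505 CPM against 265 and 358 CPM. Those 81 cells therefore held transcripts of several other cell types and were not a population of hematopoietic progenitors alone.

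For the comparison of genotypes, the targeted gene was read first. Nfkbia (ENSMUSG00000021025, GRCm38 chr12:55489410-55492647, minus strand) had 16 UMIs in 13 WT members, or 25.4 CPM, and 0 UMIs in KO members. At the floor of 3 UMIs its log2 KO/WT ratio was at most -1.41, a bound set by the small number of cells. In proliferation-positive core cells it had 137 UMIs in WT and 0 in KO, a ratio of at most -4.95. In the remaining filtered cells it had 1462 UMIs in WT and 7 UMIs in KO, so that it was near 0 throughout the KO library.

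Before the gene comparison, transcripts of other cell types were examined cell by cell. C1qa, C1qb and C1qc, which encode the complement component C1q made by macrophages, summed to 115 and 69 UMIs in 2 KO members and 11 UMIs in 1 WT member, and to at most 2 UMIs in every other member. The 2 KO cells also held 231 and 136 UMIs of a 16-gene monocyte and macrophage list, and 184 and 198 UMIs of Apoe. They were the 2 deepest KO members, with 21092 and 20452 UMIs, and they met the rule with 2 and 4 UMIs of Hlf and 3 and 2 of Mecom. Together they held 88.0% of the macrophage-list UMIs, 72.9% of the hepatocyte-list UMIs (Apoe belongs to that list) and 50.7% of the lysosome-list UMIs of the KO members. At least 5 C1q UMIs were found in 89 (2.57%) of filtered WT cells and 130 (2.94%) of filtered KO cells, and Scrublet called none of the members a doublet. Macrophages surround erythroid cells in the fetal liver, and whether these 3 cells were doublets, cells with attached macrophage material or another type was not tested. Genotype values below are for all members. Where the calls printed for a list changed without these 3 cells, the calls without them are given too. Calls of other lists could also change and are not all given.

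**Figure D4:**
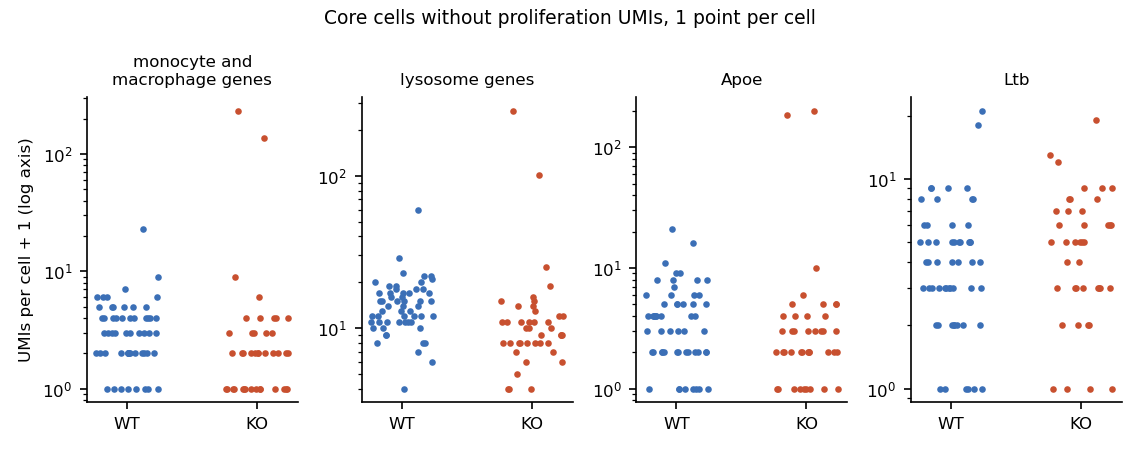
UMIs plus 1 per member (y axes, log scale) of the macrophage list, the lysosome list, Apoe and Ltb in WT and KO members, each point a cell. Macrophage-list UMIs reach 231 and 136 in the 2 KO cells with most C1q and 22 in the WT cell, while Ltb does not follow these cells.

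KO and WT members differed by size in few genes. Outside haemoglobin, mitochondrial, X inactivation and Y-linked genes, the highest ratios were of macrophage and lysosome transcripts, most of which came from the 2 KO cells. Of 1285 genes with at least 100 UMIs in members of both libraries together, 39 (3.04%) were at least 1.5-fold higher in KO and 33 (2.57%) at least 1.5-fold lower. At the minimum of 20 UMIs used for lists, 537 of 5448 genes (9.86%) were higher and 622 (11.4%) lower. The median log2 KO/WT was 0.0099 at both minimums. Apoe, an apolipoprotein, had 303 CPM in WT and 1445 CPM in KO members, a log2 ratio of 2.25 (2.01 to 2.50), and without the 3 cells 284 and 258 CPM, a ratio of -0.14 (-0.56 to 0.27). Tyrobp, a myeloid signaling adaptor, went from 1.91 to -0.06, Lyz2, the lysozyme of myeloid cells, from 1.45 to -0.12, and the lysosomal protease Ctsd from 1.63 to 0.13. Ctsb, another lysosomal protease, went from 1.74 to 0.57 (-0.24 to 1.35) and Selenop, a selenium transport protein, from 1.41 to 0.59 (-0.17 to 1.32). Without the 3 cells, 23 of 1180 genes (1.95%) were higher in KO, 17 of them also higher before, and 35 (2.97%) lower, 24 of them also lower before.

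Among genes with at least 100 UMIs, Ltb had the highest ratio once these cells were left out. Haemoglobin, mitochondrial, X inactivation and Y-linked genes were not ranked. It had 208 UMIs over 50 WT members and 179 UMIs over 37 KO members, 330 CPM (WT) and 572 CPM (KO), with a log2 ratio of 0.79 (0.50 to 1.09) in all members and 1.01 (0.71 to 1.31) without the 3 cells. In proliferation-positive core cells the ratio was 0.70 (0.57 to 0.83), and the difference between the 2 ratios was 0.09 (-0.23 to 0.41), so the higher Ltb level in KO was found in both. Gm8797, a predicted gene whose reads may come from near-identical copies, followed with 0.93 in all members, 0.99 without the 3 cells and 0.55 in proliferation-positive core cells. Iqgap1, a cytoskeletal scaffold, had 0.79 (0.27 to 1.31) and the septin gene Sept6, which lies on the X chromosome, 0.76 (0.21 to 1.31), against 0.20 and 0.10 in proliferation-positive cells. The replication clamp gene Pcna had 88.9 CPM in WT and 150 CPM in KO, a ratio of 0.76 (0.17 to 1.34), which was 0.47 (-0.19 to 1.11) without the 3 cells and -0.21 in proliferation-positive cells.

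Among genes lower in KO members, some were also lower in proliferation-positive core cells and others were closer to the WT level there. Lbp, the lipopolysaccharide-binding protein, had 170 and 79.9 CPM, a log2 ratio of -1.09 (-1.78 to -0.45), and -1.27 in proliferation-positive core cells. Stmn1, a microtubule destabilizer of dividing cells, had 495 UMIs in WT and 117 in KO, 786 and 374 CPM, with -1.07 (-1.37 to -0.78) in members and -0.91 in proliferation-positive cells. Hist1h2ap, a histone H2A gene, had -0.98 and -1.11, and the predicted genes Gm10260 and Gm10076, which may share reads with copies, -0.88 and -0.98 and -0.87 and -0.79. By contrast, Ssbp2, a single-stranded DNA-binding cofactor of LIM-domain complexes, had -1.04 (-1.80 to -0.34) in members and 0.02 in proliferation-positive cells. Pigp, Ptp4a3, Git2, Dock2 and the E protein gene Tcf4 lay between -0.76 and -0.83 in members and between -0.22 and 0.04 in proliferation-positive cells. Each of these 6 genes had 21 to 32 UMIs in KO members, and for Git2 and Dock2 the interval of the difference between the 2 ratios included 0 (-1.26 to 0.076 and -1.41 to 0.002). All were picked for a low ratio in members, which favors a ratio closer to the WT level elsewhere.

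**Figure D5:**
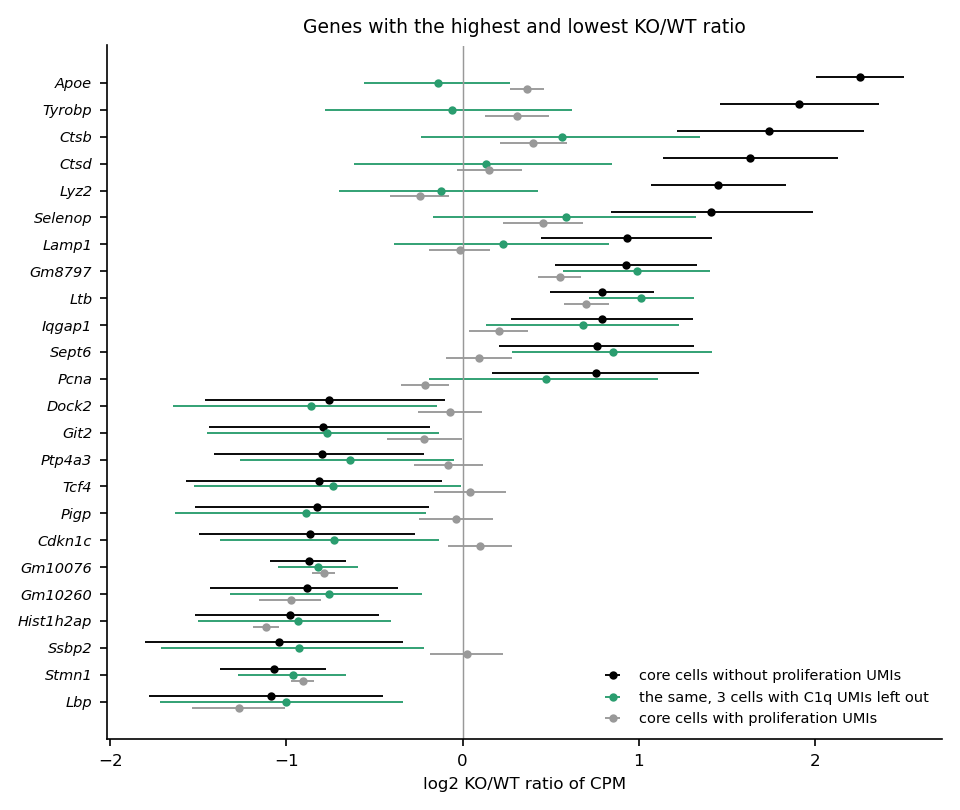
Log2 KO/WT ratio of CPM (x axis) for the 12 highest and 12 lowest genes in members (y axis), in all members, in members without the 3 cells that held C1q UMIs, and in proliferation-positive core cells, with 95% counting intervals. Haemoglobin, mitochondrial, X inactivation and Y-linked genes were not ranked. Apoe moves from 2.25 to -0.14 without the 3 cells, whereas Ltb stays at 0.79 and 1.01 and Cdkn1c at -0.86 and -0.73.

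Cdkn1c, a marker of the described cells that is also on the study's dormancy list, was lower in KO members. It had 110 UMIs in 44 of 56 WT members and 30 UMIs in 16 of 41 KO members, 175 and 95.9 CPM, a log2 KO/WT of -0.86 (-1.498 to -0.27). At 5000 UMIs per cell, 61.8% (47.7 to 74.6) of WT members and 29.7% (15.9 to 47.0) of KO members had a UMI, a difference of -32.1 points (-50.9 to -9.81), against 2.86% and 2.39% of erythroid reference cells. In proliferation-positive core cells the ratio was 0.10 (-0.08 to 0.28) with 112 and 120 CPM, and the 2 ratios differed by -0.97 (-1.63 to -0.34). In core cells with exactly 1 proliferation UMI, KO had 173 CPM of Cdkn1c (124 to 236, 40 UMIs) and WT 142 CPM (110 to 181, 66 UMIs), with overlapping intervals. With up to 1 proliferation UMI allowed in the rule, the ratio was -0.32, and without the 3 cells with C1q it was -0.73 (-1.38 to -0.13). The lower level in KO therefore rested on the 41 cells at exactly 0 UMIs.

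Most other genes of the study's dormancy list had few counts in members. The study named these genes from a published signature by their levels in bulk samples of the same line, so they are not independent evidence of a direction. Tgm2, a transglutaminase induced by retinoic acid, had 3 UMIs in WT and 4 in KO members, Ly6a 27 and 10, Tfeb, a lysosomal transcription factor, 2 and 3, and Cyp26b1, which degrades retinoic acid, 1 and 1. Myc, a growth factor-responsive transcription factor, had 41.3 and 63.9 CPM, a ratio of 0.63 (-0.29 to 1.53), and Cdk6, a G1 kinase, 34 and 11 UMIs. Among the 5 with enough UMIs, Myc was at least 1.5-fold higher in KO and Cdkn1c and Cdk6 at least 1.5-fold lower. Of all genes with at least 20 UMIs, 9.86% were that much higher and 11.4% lower. Without the 3 cells with C1q, Myc was at 0.40 (-0.62 to 1.37), under 1.5-fold, and only Cdkn1c and Cdk6 passed, both lower.

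Retinoic acid receptors were near the limit of detection. Of Rara, WT members held 11 UMIs and KO members 3, of Rarg 6 and 2, of Rxra 3 and 4 and of Rxrb 29 and 13, and of Rarb and Rxrg none in either. Their summed level was 77.8 CPM (WT) and 70.3 CPM (KO), a log2 ratio of -0.15 (-0.94 to 0.61), and a difference within that interval was not detectable at this depth. In proliferation-positive core cells the sum differed by -0.05 (-0.30 to 0.19). The 5 genes that the study named for the aorta stage, Adgrg1, Gata2, Neurl3, Sox18 and Smad6, summed to 352 and 384 CPM, a ratio of 0.12 (-0.21 to 0.45), with 0 of 4 measured genes past 1.5-fold.

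The NF-κB genes other than Nfkbia were compared by role. The 19 pathway genes without Nfkbia summed to 324 and 371 CPM, a log2 KO/WT of 0.20 (-0.15 to 0.53), and to 0.04 (-0.07 to 0.15) in proliferation-positive core cells. Of 6 with enough UMIs, the subunit genes Rel and Rela and the kinase gene Map3k7 were at least 1.5-fold higher in KO on 9 to 15 UMIs per library, with intervals that included 0. The share over all genes with at least 20 UMIs was 9.86% higher and 11.4% lower. Without the 3 cells, Rel and Rela remained higher among 5 measured genes, Map3k7 had too few UMIs to be counted and the kinase gene Ikbkb was lower, with a median of 0.039 in place of 0.37. The other inhibitor genes Nfkbib and Nfkbie had 14 and 4 and 11 and 4 UMIs. The 25 NF-κB targets summed to 686 and 965 CPM, a ratio of 0.49 (0.28 to 0.71), and without the 3 cells with C1q UMIs to 0.54 (0.32 to 0.77). Leaving out Ltb as well, the ratio was -0.09 (-0.46 to 0.28), so the sum was carried by Ltb.

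Cell cycle lists were compared outside the genes of the rule. Summed S phase genes differed by 0.04 (-0.11 to 0.19) on the log2 scale in members, with Pcna, Tyms and Pold3 of 25 measured genes at least 1.5-fold higher in KO and 2 at least 1.5-fold lower. These counts were near the shares over all genes with at least 20 UMIs, 9.86% higher and 11.4% lower. Without the 3 cells, Tyms was higher and 1 gene lower. The G2 and M phase sum had 0.16 (-0.03 to 0.33) and, without the 3 cells, 0.23 (0.04 to 0.41), which came to -0.24 with at least 2 UMIs of Hlf and Mecom required. KO members had a median of 6955 UMIs against 10549 in WT members, and the part of depth in these sums was not tested. In neither list did the difference hold its sign under the alternatives tried.

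The sums of the stem cell, metabolic and interferon lists were close between the genotypes. Stem cell transcription factors summed to -0.03 (-0.15 to 0.08), with Nfix of 26 measured genes at least 1.5-fold higher in KO and Hoxb4 and Runx1 lower. Without the 3 cells, Nfix and Lyl1 of 25 genes were higher and Etv6 and Runx1 lower. Runx1, a factor required for stem cell emergence, had 119 and 73.5 CPM, a ratio of -0.70 (-1.44 to -0.005), against 0.19 in proliferation-positive cells. Stem cell surface genes summed to -0.006 (-0.14 to 0.13). This sum includes Ltb, with a ratio of 0.79, and the median ratio of the 17 measured genes was -0.17. A sum without Ltb was not computed. Of 17 measured, Ltb was at least 1.5-fold higher in KO, and Kit, Eng, Cd93 and Adgrl4 were lower. Over all genes at that minimum, 9.86% were higher and 11.4% lower. Adgrl4, an adhesion receptor of endothelial and stem cells, had 214 and 64 UMIs, 340 and 205 CPM, a ratio of -0.73 (-1.16 to -0.32), against -0.15 in proliferation-positive cells. Oxidative phosphorylation genes differed by 0.05, glycolysis genes by -0.02 and MYC targets by 0.003, with 0 of 45, 0 of 16 and 1 of 37 genes at least 1.5-fold higher and 0, 1 and 2 lower. The MYC target that was higher, Tfrc (the transferrin receptor), had 10 UMIs in KO members and 3 UMIs without the 3 cells, where 0 of 36 MYC targets were higher, and 2 of 15 glycolysis genes were then lower. Of the G2 and M phase genes, 3 of 10 were then higher. Interferon response and MHC class I genes summed to 0.15 (0.06 to 0.25), with B2m at 421 and 521 CPM. Of 13 measured, Irf1 was at least 1.5-fold higher in KO and Psmb9 lower. Without the 3 cells the interferon sum was 0.21 (0.10 to 0.31), with Irf1 and Tapbp of 12 genes higher and H2-T23 and Psmb9 lower.

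Lists of other cell types and of lysosomes moved with the 2 KO cells. The macrophage list had 233 CPM in WT and 1333 CPM in KO members, a log2 ratio of 2.51, and 202 and 184 CPM without the 3 cells, a ratio of -0.13 (-0.63 to 0.35). Of 17 measured lysosome genes, 11 were at least 1.5-fold higher in KO members, with a sum of 0.90 (0.75 to 1.04), and without the 3 cells 3 of 16, with a sum of 0.17 (-0.02 to 0.36). In all members, 9.86% of all genes with at least 20 UMIs were that much higher and 11.4% lower. Hepatocyte genes went from 1.89 to 0.26 (-0.03 to 0.55), and from 6 of 7 measured genes at least 1.5-fold higher to 2 of 6. The sums of lymphoid, mast cell, stromal and endothelial genes had intervals that included 0. The neutrophil sum was -0.40 (-0.78 to -0.03) and the megakaryocyte sum 0.43 (0.08 to 0.79), and without the 3 cells their intervals included 0, at -0.30 (-0.69 to 0.08) and 0.16 (-0.25 to 0.55). The erythroid list gave no single direction. Its sum was -0.13 (-0.23 to -0.02), while 4 of 7 measured genes (Hba-a2, Hbb-bs, Tfrc and Blvrb) were at least 1.5-fold higher in KO and 0 lower, with a median log2 ratio of 0.70. Without the 3 cells the sum was -0.18 and the median 0.35, with Hba-a2 and Hbb-bs of 6 genes higher and Hbb-bt lower.

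Variation among members was compared at 8500 UMIs per cell, a depth that 51 WT and 9 KO members reached. The genes with the highest Fano factor (variance over mean of the thinned counts) in both libraries were Gm42418, which overlaps ribosomal RNA, Malat1, a nuclear long noncoding RNA, and the beta-globin gene Hbb-bt. Hmox1, the heme oxygenase, had a Fano factor of 15.6 in WT and 12.9 in KO with a highest cell of 18 and 14 UMIs, and Slc40a1, the iron exporter, 6.21 and 4.12. Both are genes of iron-recycling macrophages, and Ctsb and Apoe stood on the same list. In WT members, the median Fano factor over 6849 genes was 1.02, close to the value of 1 that counting alone gives.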

How the data were processed

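Droplet-based 3' single-cell RNA sequencing was carried out on sorted LSK cells of 1 WT and 1 KO library. The authors aligned the reads with Cell Ranger 6.0.0 to mm10 (GRCm38) and deposited UMI counts of each gene in each barcode. The annotation release was not given in the sources used here, and GENCODE vM21 placed 32235 of 32285 gene IDs. Cells with at least 1000 detected genes and up to 20% mitochondrial UMIs were kept, which left out 382 of 3840 WT and 511 of 4928 KO barcodes. Scrublet (in scanpy 1.11.5, with an expected rate of 0.05) called no member a doublet, and its calls were kept.

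The counts were summed over cells per library (Python 3.11.15, numpy 2.4.6, scipy 1.17.1, pandas 2.3.3). CPM had exact Poisson intervals, log2 ratios exact conditional (Clopper-Pearson) intervals, shares Clopper-Pearson intervals and their differences intervals combined from these. Only the intervals of log2 ratios were tested on simulated data. A count of 0 was set to a floor of 3 UMIs for ratios. Genes were called by size, at 1.5-fold for KO against WT and at 2-fold in both libraries for the contrasts, with a minimum of 100 UMIs, or 20 UMIs for lists. Alternatives covered depth, the thresholds of the rule, doublets, sex, scaling and the gene minimum.

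Named genes were those of the rule and the markers, Nfkbia, the dormancy, aorta-stage and retinoic acid receptor genes, the 15 highest and 10 lowest of each contrast, the 12 highest and 12 lowest for KO against WT, the 15 highest Fano factors and up to 6 genes with most UMIs per list. The ranking for KO against WT left out haemoglobin, mitochondrial, X inactivation and Y-linked genes. Eng, Cd93, Cdkn1b, Hoxb4, Meis1, Nfix, Runx1 and the S phase, G1 and G2 genes named beyond these were chosen after their values were seen. The members and lists were chosen with earlier results of these data known. Leaving out cells with 5 or more C1q UMIs and the erythroid reference with 10 or more Klf1 UMIs were added after seeing the data. Some genes are not reported here.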

Additional observations from a re-analysis of the deposited data

Results flagged for a closer look

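For 6 of the genes compared, log2 KO/WT had opposite signs in proliferation-negative and proliferation-positive core cells and the interval of the difference left out 0. The difference was not tested, since each genotype had 1 library and both ratios came from the same libraries. The interval covers counting error only and does not allow for the choice of genes. For Apoe, Tyrobp, Ctsb, Ctsd, Selenop, Iqgap1, Sept6, Pigp and Ptp4a3 it also left out 0, but the ratio had the same sign in both.

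Cdkn1c had a ratio of -0.86 in the members and 0.10 in proliferation-positive core cells, a difference of -0.97 (-1.63 to -0.34). Ssbp2 had -1.04 and 0.02, a difference of -1.06 (-1.86 to -0.33), and Tcf4 -0.82 and 0.04, a difference of -0.86 (-1.64 to -0.13). In the other direction, Lyz2 had 1.45 and -0.24, a difference of 1.69 (1.27 to 2.12), Pcna 0.76 and -0.21, a difference of 0.97 (0.36 to 1.57), and Lamp1, a lysosomal membrane protein gene, 0.93 and -0.02, a difference of 0.95 (0.43 to 1.46).

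Without the 3 members that held C1q UMIs, the ratios in members were -0.73 for Cdkn1c, -0.93 for Ssbp2, -0.73 for Tcf4, -0.12 for Lyz2, 0.47 for Pcna and 0.23 for Lamp1.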

How the results depend on the processing

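No paired analysis was possible because the groups share a single replicate number, and no replicate could be left out. Over the alternatives, Cdkn1c kept its sign (-1.54 to -0.32). The S sum (-0.14 to 0.30) and the G2 and M sum (-0.24 to 0.23) took both signs. So did the NF-κB pathway sum (-0.003 to 0.29) and the retinoic acid receptor sum (-0.26 to 0.51), and none of these sums passed 1.5-fold. Nfkbia had 0 UMIs in KO members, so its values (-2.31 to -0.023) were bounds at the floor of 3 UMIs. A bound above 0 gave no value, so Nfkbia could not change sign. With cells thinned to 8500 UMIs, the share differences were -1.58 points of filtered and -20.3 points of core cells and the G2 and M sum was -0.057. Genes higher and lower in KO then numbered 95 and 81, those higher and lower than in proliferation-positive core cells 1 and 123, and those higher than in cells without Hlf and Mecom 7. With 5000 UMIs the last 2 contrasts gave 0 and 75, and 99 and 210. WT cells thinned by the depth ratio of the libraries gave an S phase sum of -0.14. With cells of 10000 to 30000 UMIs (36 WT, 5 KO members) the shares differed by -1.97 and -9.86 points, the S and G2 and M sums were 0.30 and -0.071, Cdkn1c was -1.54, the counts for KO against WT were 64 and 65, 108 genes were lower than in proliferation-positive cells, and the contrast to cells without Hlf and Mecom gave 0 and 16. Among cells that had Xist but no Y-linked UMI, Nfkbia was at most -0.86, 1 gene was higher than in proliferation-positive cells, and 3 and 41 passed the other contrast. With up to 1 proliferation UMI the latter gave 36 and 103. With at least 2 UMIs of Hlf and of Mecom (33 WT, 11 KO members), Nfkbia was at most -0.023, the S and G2 and M sums 0.27 and -0.24, and the contrasts gave 0 and 88, and 6 and 40. Median-of-ratios scaling gave 8 genes higher than in cells without Hlf and Mecom, and the mean of CPM over cells gave 2 genes higher than in proliferation-positive cells. A minimum of 50 UMIs gave 141 and 145 genes for KO against WT, 11 genes higher than in proliferation-positive cells, and 59 and 138 in the last contrast, and a minimum of 200 gave 10 and 7, then 0 and 100, then 4 and 34. Without cells of 5 or more C1q UMIs, 23 genes were higher in KO. For Nfkbia and Tgm2 single settings with too few UMIs gave no value. The cause of these shifts was not tested. With 41 and 56 cells, depth limited every gene under about 100 UMIs.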
